A study of Homo sapiens with 4 samples.

Results

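The independently transcribed C/D box small nucleolar RNAs (snoRNAs) U3, U8 and U13 were measured by small RNA sequencing in HEK293T, a transformed line of human embryonic kidney origin. The genes were chosen by symbol, matched to the Ensembl identifiers of the deposited tables, and gave 7 features of the 7062 listed: the U3 loci SNORD3A, SNORD3B-1, SNORD3B-2, SNORD3C and SNORD3D, the U8 gene SNORD118 and the U13 gene SNORD13. Both groups of cells had been transiently transfected with 1.5 µg of plasmid per well encoding an α-amanitin-resistant RPB1, the catalytic subunit of RNA polymerase II (Pol II), whose C-terminal domain held 52 heptad repeats. They were then selected for 72 h with 2.5 µg/ml α-amanitin, a toxin of the endogenous enzyme, so the controls carried a transfected polymerase and the toxin as well. In 52X WT the repeats were wild type, and in 52X T4A the threonine at position 4 was replaced by alanine. There were 2 libraries of single-end 50 bp reads from total RNA in each group, described by the submitters as biological replicates, and a difference between them can reflect fewer cells making an RNA or less RNA per cell, which cannot be told apart in bulk samples. The question was how the levels of small RNAs compared between the T4A and the wild-type polymerase.

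Most human snoRNAs are cut out of the introns of host genes. U3, U8 and U13 are instead transcribed by Pol II from their own genes, whose promoters resemble those of the spliceosomal small nuclear RNAs (snRNAs), and the RNAs receive a cap. U3 base-pairs with the ribosomal RNA precursor and is needed for its early cleavages on the way to the small ribosomal subunit. U8 is needed for the RNAs of the large subunit, and variants of SNORD118 cause a childhood leukoencephalopathy with calcifications and cysts. U13 assists the acetylation of a cytidine of the small subunit RNA.

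The U3 loci are shown first because they could not be counted independently. All 5 lie on chromosome 17 (GRCh38 positions as in the deposited tables): SNORD3B-1 at 19061912 to 19062669 on the plus strand, SNORD3B-2 at 19063346 to 19064136 on the minus strand, SNORD3D at 19112420 to 19112636 on the minus strand, SNORD3A at 19188016 to 19188714 on the plus strand, and SNORD3C at 19189665 to 19190245 on the minus strand. The RNA itself has 217 bases in RefSeq, so that the SNORD3D feature spans the RNA alone while the features of the other loci, 581 to 791 bases long, extend past it. SNORD3A, from the GENCODE v44lift37 transcripts and trimmed to the RNA, reads 5′ to 3′ as below, with capitals for bases 37 to 67, the longest exact run shared with an unlinked U3 copy on chromosome 2 (114005440 to 114005655, minus strand, ENSG00000212182).
SNORD3A: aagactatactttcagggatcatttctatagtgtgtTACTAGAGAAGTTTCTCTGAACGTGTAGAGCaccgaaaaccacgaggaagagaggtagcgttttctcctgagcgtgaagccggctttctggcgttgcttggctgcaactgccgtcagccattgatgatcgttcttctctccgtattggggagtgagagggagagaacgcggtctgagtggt
Positions are counted from 1 at the 5′ end, with the base of SNORD3A first. SNORD3B-1 and SNORD3B-2 differed from SNORD3A at 1 base of 217 (A78C), and SNORD3C at 1 base (G108A). SNORD3D differed at 3 bases (A4G, C53T and A78C), an identity of 98.6%. The SNORD3D sequence was taken from the 5′ end of the annotated noncoding RNA ENSG00000262202, since SNORD3D had no transcript of its own in that annotation. The start of that RNA lay 75380 bases from the start of SNORD3A and on the opposite strand, the same distance and strand as SNORD3D in the deposited tables. The 3 lines that follow give bases 31 to 75 of SNORD3A, of SNORD3D and of the copy on chromosome 2, with bases 37 to 67 again in capitals, and show that C53T falls inside the shared run.
SNORD3A: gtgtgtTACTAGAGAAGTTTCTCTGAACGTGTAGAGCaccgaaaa
SNORD3D: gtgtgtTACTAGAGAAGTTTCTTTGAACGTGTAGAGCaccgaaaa
U3 copy on chromosome 2: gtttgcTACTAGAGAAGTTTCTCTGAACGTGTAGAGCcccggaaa
A read from this run matches SNORD3A and the chromosome 2 copy alike, and mismatches SNORD3D wherever it covers base 53.

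**Figure D1:**
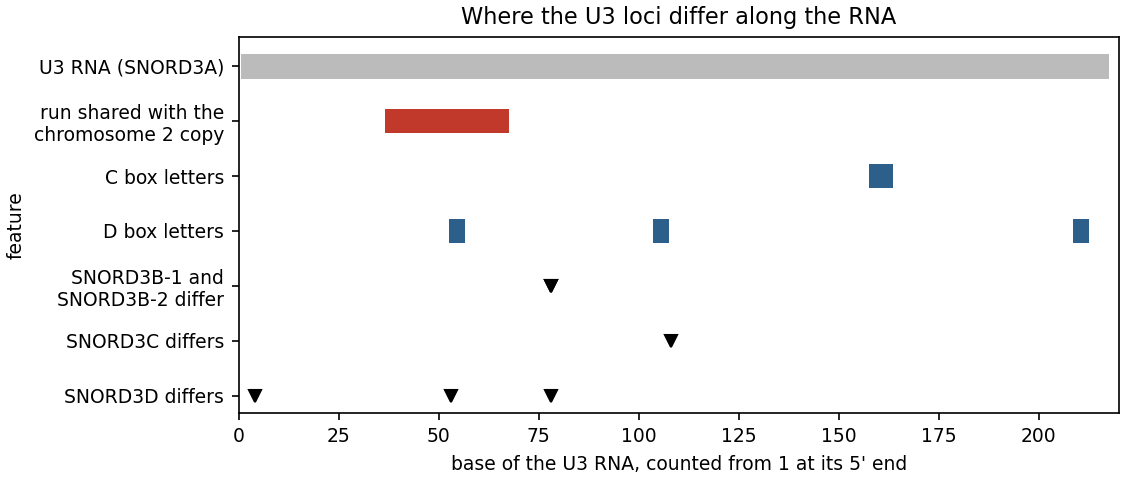
Map of the 217-base U3 RNA, with the base of SNORD3A on the horizontal axis and 1 row per feature. The bars mark the run shared with the copy on chromosome 2 (bases 37 to 67) and the letters of the C and D boxes, and each triangle is a base at which another U3 locus differs from SNORD3A. Of the 3 SNORD3D differences, the one at base 53 lies in the shared run.

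The letters of the C box, TGATGA, occurred once in each RNA when the strand of the RNA was read, at bases 158 to 163 of U3, 55 to 60 of U8 and 23 to 28 of U13. Of 390 annotated SNORD transcripts, 64.4% held these letters. The letters of the D box, CTGA, stood at bases 209 to 212 of U3, 130 to 133 of U8 and 99 to 102 of U13, close to the 3′ end of each, and were found in 88.7% of the same transcripts. U3 also held CTGA at bases 53 to 56 and 104 to 107, and U8 at bases 116 to 119. The U3 match at base 53 is absent from SNORD3D through C53T. These matches are letters only and say nothing of function.

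SNORD118 lies on chromosome 17 (8173454 to 8173587, minus strand), where it overlaps the 3′ untranslated region of TMEM107. It also has relatives that took up counts. The 30 bases of SNORD118 that end at base 127 are shown beside the matching bases 92 to 121 of a U8 copy on chromosome 1 (234593275 to 234593402, plus strand, ENSG00000212144), with capitals for the 17 bases that are identical (bases 111 to 127 of SNORD118).
SNORD118: atcaggacttgcaACACCCTGATTGCTCCT
U8 copy on chromosome 1: aatcaggtctcacACACCCTGATTGCTCCT
A further U8 copy on chromosome 11 (123301390 to 123301523, plus strand, ENSG00000200496) shared an unbroken run of 33 bases with SNORD118, at bases 95 to 127, which includes these. The longest run that the copy on chromosome 1 shared with SNORD118 lay elsewhere, with 23 bases at bases 3 to 25.

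Total counts ranged from 16180790 to 27370127 per library, miRNAs took 63.5% to 75.3% of them and C/D box snoRNAs 3.59% to 4.73%. Of 12 miRNA genes typical of liver, muscle, blood cells or the nervous system, 11 were analysed and none was at 0 in all libraries, MIR144 having 0 counts in 1 library of each group. Scaled to the library's total (CPM), their sum came to 98.6 and 99.4 with 52X T4A against 32.4 and 36.8 with 52X WT. Most of it came from MIR1-1 and MIR1-2, muscle miRNA genes. Their counts were nearly equal in every library (738 and 740 in 52X T4A replicate 1), as genes that share reads would have. They may thus enter the sum as 1 signal counted more than once. Whether the difference in this sum had a part in the snoRNA values was not tested.

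Counted at SNORD3A, U3 was the most abundant of the 3 RNAs. SNORD3A had 6857 and 14196 counts with 52X T4A and 6711 and 7139 with 52X WT. After scaling for library size and composition these were 433 and 450 CPM with 52X T4A and 460 and 379 CPM with 52X WT, so that the 52X T4A values lay between the 52X WT values. The means were 441 ± 11.6 CPM with 52X T4A and 420 ± 57.0 with 52X WT (SD, n = 2). This gave a log2 fold change, 52X T4A over 52X WT, of 0.07 (SE 0.23, 95% interval -0.44 to 0.59), with an adjusted p of 0.954 in edgeR's quasi-likelihood test.

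SNORD3B-1, SNORD3B-2 and SNORD3C gave nearly the counts of SNORD3A, as loci that share reads, or divide them evenly, would. SNORD3B-1 held 97.3% to 98.9% of the SNORD3A count in each library, SNORD3B-2 104% to 114% and SNORD3C 106% to 113%. SNORD3B-1 stood at 422 and 437 CPM with 52X T4A and at 455 and 375 CPM with 52X WT. SNORD3B-2 stood at 454 and 466 CPM against 490 and 431 CPM. For SNORD3C the values were 460 and 482 CPM with 52X T4A and 501 and 430 CPM with 52X WT. In each of these loci 52X WT replicate 1 was the highest library and 52X WT replicate 2 the lowest. Their log2 fold changes were 0.05, -0.00081 and 0.02, and edgeR's adjusted p lay between 0.970 and 0.998. They are not separate evidence from SNORD3A.

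SNORD3D stood apart from the other U3 loci. Its counts were 3181 and 7231 with 52X T4A and 2463 and 2477 with 52X WT, or 201 and 229 CPM against 169 and 132 CPM. Both 52X T4A libraries were above both 52X WT libraries. The mean was 215 ± 19.8 CPM with 52X T4A and 150 ± 26.3 CPM with 52X WT (SD, n = 2), and the log2 fold change was 0.52 (SE 0.26, 95% interval -0.06 to 1.10). It did not pass the test, with an unadjusted p of 0.073 and an adjusted p of 0.467 in edgeR.

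U8 showed the opposite order of groups by a smaller margin. SNORD118 had 1936 and 4469 counts with 52X T4A and 2170 and 2781 with 52X WT. These came to 122 and 142 CPM with 52X T4A and 149 and 148 CPM with 52X WT, so that both 52X T4A libraries were just below the 52X WT libraries. The means were 132 ± 13.6 and 148 ± 0.693 CPM (SD, n = 2). The log2 fold change was -0.17 (SE 0.25, 95% interval -0.73 to 0.40, adjusted p = 0.833 in edgeR), beside a median of -0.05 over all tested features. With library size as the only scaling the groups overlapped and the log2 fold change was 0.02, beside a median of 0.14 over all tested features.

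U13 was the least abundant. SNORD13 lies on chromosome 8 (33513475 to 33513578, plus strand) and had 570 and 1230 counts with 52X T4A and 405 and 649 with 52X WT. The levels were 36.0 and 39.0 CPM with 52X T4A and 27.8 and 34.5 CPM with 52X WT, with both 52X T4A libraries above both 52X WT libraries. The means were 37.5 ± 2.08 and 31.1 ± 4.75 CPM (SD, n = 2). The log2 fold change was 0.27 (SE 0.30, 95% interval -0.40 to 0.94), and the adjusted p in edgeR was 0.746. Without 52X WT replicate 1, the lowest library, it was 0.03.

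**Figure D2:**
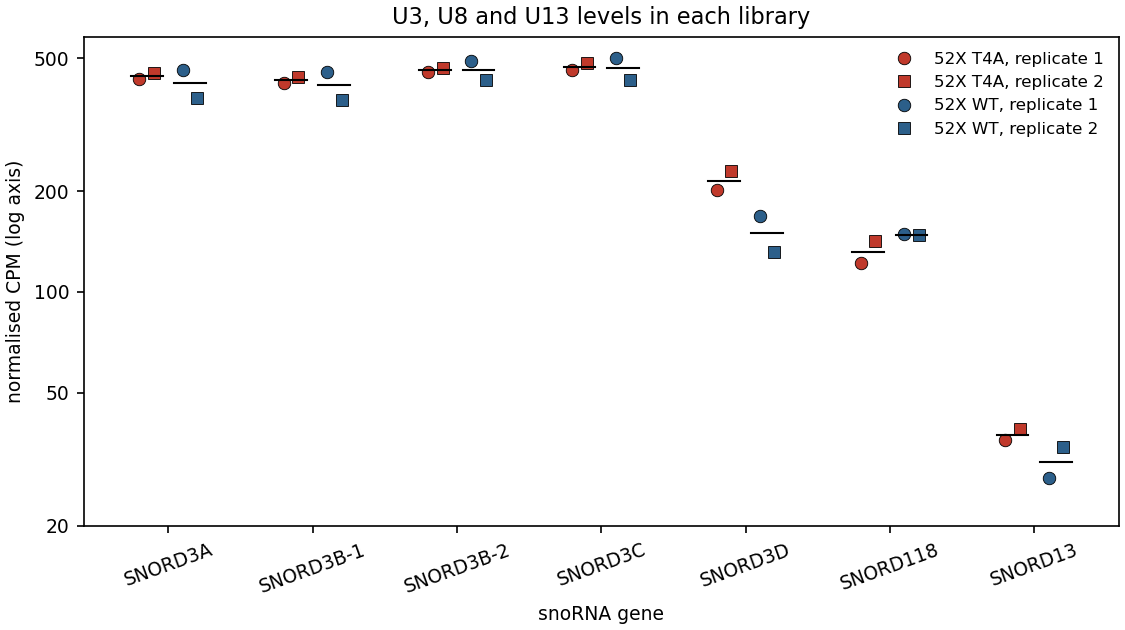
Normalised CPM of each gene (log axis) in the 4 libraries, with a horizontal line at the mean of each group of 2. The 52X T4A points of SNORD3D (201 and 229 CPM) sit above the 52X WT points (169 and 132 CPM), while the points of the other U3 loci overlap.

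None of the 7 genes was called at an adjusted p below 0.05 and a fold change above 1.5, against 2 of 1480 tested features (0.135%, 1 in each direction). At an unadjusted p below 0.05, 0 of the 7 genes passed, against 152 of the 1480 features (10.3%), and DESeq2 called 0 of the 7 genes, against 29 of the 1480 (1.96%). All 7 genes passed the filter on low counts. The groups did not overlap in 3 of the 7: SNORD3D and SNORD13 were higher with 52X T4A, beside 18.9% of all tested features, and SNORD118 was lower, beside 21.2%. Counts of 2 and 1 of 7 genes are near these shares. With library size as the only scaling, SNORD3A, SNORD3B-1 and SNORD3B-2 were also higher in both 52X T4A libraries, beside 29.4% of all tested features under that scaling. The median log2 fold change was 0.05 over the 7 genes and -0.05 over all tested features. The 7 include SNORD3A, SNORD3B-1, SNORD3B-2 and SNORD3C, which are not separate evidence, so their median weighs U3 several times.

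Because the loci can hold the same reads or divide them, U3 was also tested as 1 feature. With the highest count of the 5 loci in each library, U3 stood at 460 and 483 CPM with 52X T4A and at 502 and 431 CPM with 52X WT. The 52X T4A values lay between the 52X WT values, and the log2 fold change was 0.02 (SE 0.22, 95% interval -0.49 to 0.52, adjusted p = 0.989 in edgeR). With the sum of the loci it was 0.08. These intervals include 0 and do not show that the groups were alike.

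**Figure D3:**
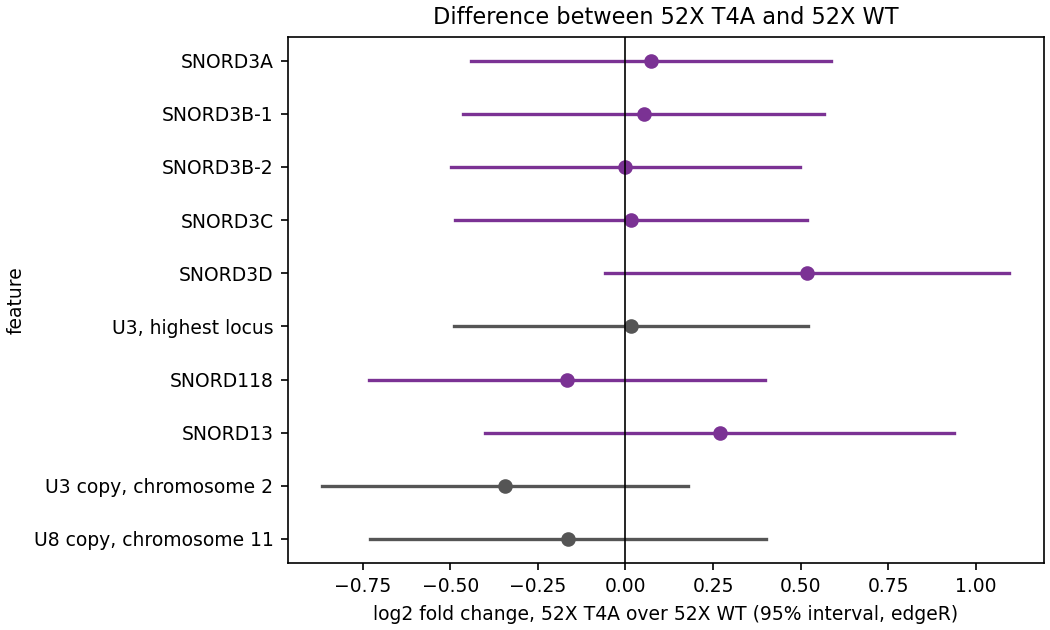
Log2 fold change of each feature, 52X T4A over 52X WT, with its 95% interval from edgeR. Intervals of all 7 genes, of U3 taken as 1 feature and of the copies of U3 on chromosome 2 and of U8 on chromosome 11 include 0, and that of SNORD3D, from -0.06 to 1.10, lies farthest to the right.

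Levels were compared between genes per kb of the RefSeq RNA. SNORD3A stood at 2034 ± 53.4 CPM per kb with 52X T4A and at 1933 ± 263 with 52X WT (SD, n = 2). SNORD118 stood at 963 ± 99.2 and 1082 ± 5.06 CPM per kb, and SNORD13 at 360 ± 20.01 and 299 ± 45.7. SNORD3A was 1.62 to 2.24 times U8, and U8 was 2.58 to 4.07 times U13, in every one of the 4 libraries. The SNORD3A feature spans 699 bases, so any reads past the 217-base RNA raise its value. Reads shared or divided among loci and copies also enter these folds. SNORD3D, whose feature spans the RNA alone, stood at 991 ± 91.4 CPM per kb with 52X T4A and 692 ± 121 with 52X WT. It did not differ from U8 beyond the spread with 52X T4A, and was below U8 with 52X WT. Among 166 tested C/D box features ranked by mean CPM per kb, SNORD3C was 32nd, SNORD3B-2 33rd, SNORD3A 35th, SNORD3B-1 38th, SNORD118 57th, SNORD3D 63rd and SNORD13 85th. The RNAs are longer than the 50-base reads, so that a count can come from a fragment as well as from the whole RNA.

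Ratios within a library do not depend on the scaling. U8 amounted to 28.2% and 31.5% of the SNORD3A count with 52X T4A and to 32.3% and 39.0% with 52X WT. The groups did not overlap, and the difference in log2 ratio, 52X T4A minus 52X WT, was -0.25, while replicates differed by 0.16 and 0.27. Leaving out 52X WT replicate 2 gave -0.12, and leaving out replicate 1 of that group gave -0.39. U13 amounted to 8.31% and 8.66% of SNORD3A with 52X T4A and to 6.03% and 9.09% with 52X WT, which overlapped, with a difference of 0.20 on the log2 scale. U13 amounted to 29.4% and 27.5% of U8 with 52X T4A and to 18.7% and 23.3% with 52X WT. This pair had the widest gap of the 3, a log2 difference of 0.45 beside replicate differences of 0.10 and 0.32, and it was 0.29 without 52X WT replicate 1. The exact two-sided permutation p was 0.333 for U8 to U3 and for U13 to U8, the smallest that 2 against 2 libraries can give, and 1 for U13 to U3.

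Within U3, the counts divided differently over the loci in the 2 groups. These pairs of loci were picked after their counts had been seen, so the values are a description. SNORD3D amounted to 46.4% and 50.9% of the SNORD3A count with 52X T4A and to 36.7% and 34.7% with 52X WT. The copy on chromosome 2, which matches U3 at the run around base 53, took the opposite order, with 55.5% and 50.9% with 52X T4A and 68.0% and 74.5% with 52X WT. In each library the 2 features added up to nearly the SNORD3A count, at 102%, 102%, 105% and 109% of it. This sum leaves out a U3 copy on chromosome 8 (ENSG00000221461), which shares the same run. That copy held 56.6% and 51.8% of the SNORD3A count with 52X T4A and 69.4% and 76.9% with 52X WT. The sum thus depends on which copies are counted. The log2 ratio of SNORD3D to the copy on chromosome 2 was -0.26 and 0.00 with 52X T4A and -0.89 and -1.10 with 52X WT. The difference of 0.87 between the groups was over 3 times the difference between replicates, which was 0.26 with 52X T4A and 0.21 with 52X WT. How reads that match several loci were assigned was not given in the sources used here, and which part of U3 each read came from is not recorded in the counts.

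**Figure D4:**
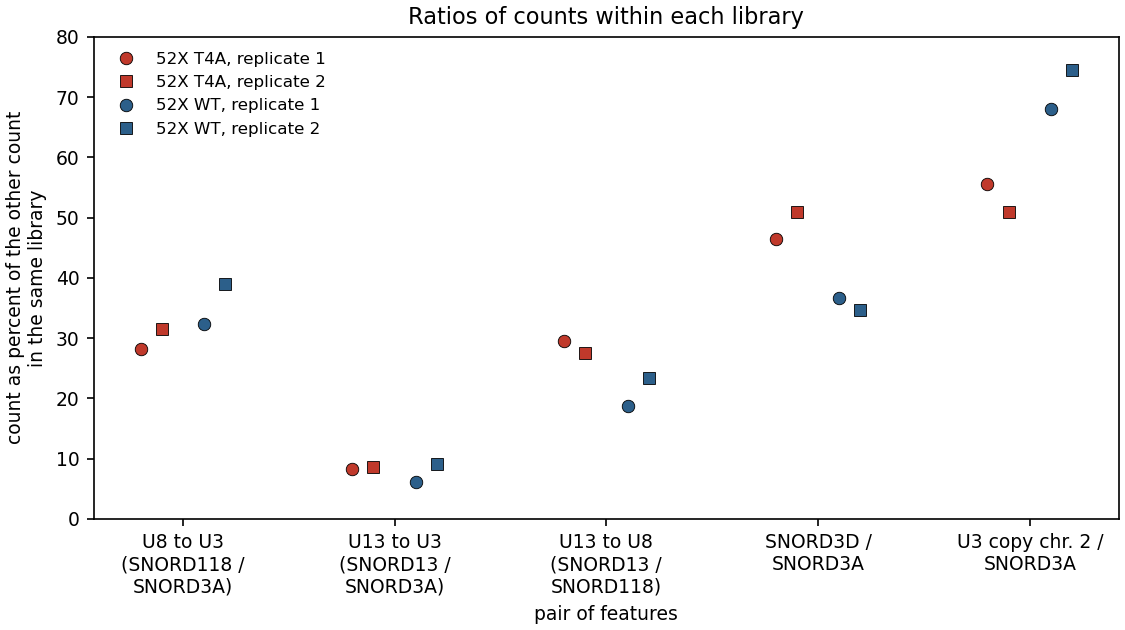
Count of 1 feature as a percent of the count of another in the same library, for 5 pairs and 4 libraries. SNORD3D relative to SNORD3A is higher in both 52X T4A libraries (46.4% and 50.9%) than in both 52X WT libraries (36.7% and 34.7%), and the copy on chromosome 2 shows the reverse order.

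Further copies of the 3 RNAs were common in the annotation but few held counts. There were 49 features named U3, 22 named U8 and 34 named snoU13, 105 in all, of which 48 had 0 counts in every library and 15 had a mean of at least 10. A second U3 copy with many counts, on chromosome 8 (123180310 to 123180525, minus strand, ENSG00000221461), had 3882 and 7360 counts with 52X T4A and 4657 and 5487 with 52X WT, close to those of the copy on chromosome 2 (3809, 7219, 4562 and 5322). It shared bases 36 to 69 with SNORD3A. The log2 fold changes of these copies were -0.35 and -0.34, with adjusted p of 0.563 and 0.577 in edgeR. A further U3 copy on chromosome 8 (ENSG00000207215) had 32 to 73 counts, and those on chromosomes 1 (ENSG00000199666) and 7 (ENSG00000202233) had 23 to 49.

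The U3 copy on chromosome 17 at 58631641 to 58631836 (minus strand, ENSG00000212195), outside the U3 cluster, had the largest difference of the 15. It had 1 and 9 counts with 52X T4A and 27 and 34 with 52X WT. The log2 fold change was -3.15 (SE 0.59, 95% interval -4.47 to -1.82), but the adjusted p in edgeR was 0.123. It was called lower under 6 of the 13 alternatives that gave an adjusted p, which ranged from 0.00012 to 0.251 (edgeR), among them library size alone (0.0177), no filter (0.00012) and the fits without 52X T4A replicate 2 (0.0217), 52X WT replicate 1 (0.00645) or 52X WT replicate 2 (0.00106). Its longest run in common with SNORD3A was 16 bases.

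Copies of U8 and U13 took up counts as well. The copy on chromosome 11 had 1906 and 4391 counts with 52X T4A and 2131 and 2722 with 52X WT, between 97.9% and 98.5% of SNORD118. The copy on chromosome 1 held 83.2% to 87.2% of the SNORD118 count. Copies on chromosome 9 (ENSG00000200026) and chromosome 5 (ENSG00000212249) held 6.76% to 11.6%, the copy on chromosome 12 (ENSG00000201809) 2.95% to 4.49% and a second copy on chromosome 5 (ENSG00000202269) 0.276% to 1.14%. The runs that the chromosome 9 and the first chromosome 5 copy shared with SNORD118 lay in the middle of the RNA, at bases 48 to 76 and 60 to 85. The 3 copies of U13, on chromosomes 2, 16 and 22 (ENSG00000238295, ENSG00000238645 and ENSG00000238498), shared bases 1 to 39 with SNORD13 and held 1.23% to 2.22% of its count. No U8 or U13 copy was called.

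With U3 taken as its highest locus, the 3 RNAs made up a small part of the C/D box counts. U3, counted in this way, took 1.19% ± 0.284 of the counts of all SNORD features with 52X T4A and 1.07% ± 0.159 with 52X WT (SD, n = 2). The numerator was a single locus, while the denominator held every U3 locus. If the loci divide the reads, the share of U3 is that of their sum, which is larger and is not given here. The share of U8 was 0.335% ± 0.103 against 0.344% ± 0.0856, and that of U13 was 0.0947% ± 0.0247 against 0.0736% ± 0.0293. For all 3 the libraries of the groups overlapped.

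Other small RNA genes with related promoters or functions were set beside them. Of 34 Pol II snRNA features, 27 were tested, 0 were called and 5 had a log2 fold change above 0. Their median was -0.12, beside -0.05 over all tested features. It became 0.06 with upper quartile scaling and 0.07 with library size alone, beside 0.13 and 0.14 over all tested features. The median was also above 0 without 52X WT replicate 1 (0.03), and leaving out replicate 2 of that group gave -0.36 and leaving out 52X T4A replicate 1 gave -0.31. The most abundant was RNU2-2P, a U2 spliceosomal snRNA gene, with 103 and 75.6 CPM with 52X T4A and 44.9 and 61.6 CPM with 52X WT. Both 52X T4A libraries were higher, and its log2 fold change of 0.74 (SE 0.31) had an adjusted p of 0.448 in edgeR. RNU12, of the minor spliceosome, stood at 26.9 and 27.05 CPM against 31.0 and 23.6, and RNU1-4, a U1 gene, at 28.9 and 23.1 CPM against 33.7 and 21.6. Both overlapped between the groups. RNU1-2 stood close to RNU1-4, at 28.3 and 23.1 CPM against 33.0 and 21.9. Such U1 features may share reads, so the features behind this median are not all independent.

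Pol III genes with the same promoter element (the proximal sequence element) were close to the median of all features. Of 8 features 7 were tested, 2 had a log2 fold change above 0 and 0 were called. Their median of -0.05 became 0.13 with library size alone, beside 0.14 over all tested features. The 7SK gene RN7SK, listed under 2 identifiers with the same counts, had 9.35 and 8.96 CPM with 52X T4A and 9.25 and 9.67 CPM with 52X WT. RNU6-9, a U6 gene, had 1.26 and 0.823 CPM against 0.891 and 1.33. SCARNA2, a Cajal body RNA that also has its own promoter, stood at 29.3 and 20.7 CPM with 52X T4A and at 60.0 and 29.2 CPM with 52X WT. Its log2 fold change of -0.83 (SE 0.39) did not pass the test (adjusted p = 0.467 in edgeR), and the groups overlapped. Leaving out 52X WT replicate 1 gave -0.33, and leaving out replicate 2 of that group gave -1.26.

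Of the intron-hosted snoRNAs of the same early cleavages (SNORD14A to SNORD14E, SNORD22 and SNORA73B), all 7 were tested, 6 had a log2 fold change above 0 and 0 were called. Their median was 0.30 in all libraries and 0.07 without 52X WT replicate 1. SNORD14C stood at 20.8 and 16.5 CPM with 52X T4A and at 19.1 and 15.8 CPM with 52X WT. SNORD14B stood at 11.7 and 11.6 CPM against 6.92 and 11.1, and SNORD14A at 12.0 and 10.3 CPM against 6.72 and 10.5. The other C/D box snoRNAs, which here include SNORD14A to SNORD14E and SNORD22, had 159 of 345 features tested. Of these 51 had a log2 fold change above 0 and 0 were called. Their median was -0.22, beside -0.05 over all tested features. It became -0.03 under upper quartile scaling and with library size alone, beside 0.13 and 0.14 over all tested features. Leaving out 52X WT replicate 1 gave 0.07, leaving out replicate 2 of that group gave -0.59, and leaving out 52X T4A replicate 1 gave -0.34.

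**Figure D5:**
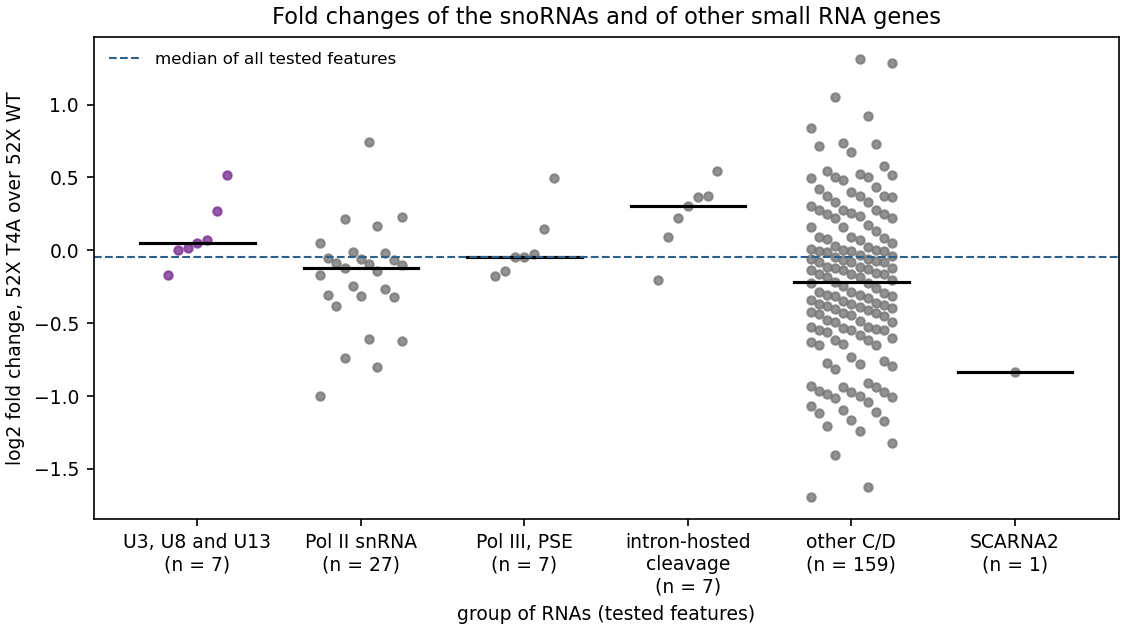
Log2 fold change of each tested feature, 52X T4A over 52X WT, by group of RNAs, with a solid line at the median of each group and a dashed line at the median of all tested features. The 7 snoRNA genes lie between -0.17 and 0.52, within the range of the other C/D box snoRNAs. The C/D box snoRNAs of the intron-hosted cleavage group are also among the other C/D box snoRNAs.

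The features whose profile over the 4 libraries was most like that of each snoRNA were sought among 699 named features that averaged 100 counts or more, by the root mean square difference of centred log2 CPM. For SNORD3A these were RNU12-2P (0.045), MIR1226 (0.045) and MIR501 (0.058). For SNORD118 they were MIR10A (0.054), MIRLET7D (0.060) and MIR10B (0.064), and for SNORD13 they were MIR4652 (0.021), MIR3133 (0.033) and MIR628 (0.046). With 4 libraries such likeness is a description of these profiles only.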

How the data were processed

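Small RNAs were counted in cells with the T4A and the wild-type polymerase, 2 libraries each. The authors deposited raw counts per feature for each library, with position, strand and length. The submitters' processing notes name cutadapt 4.6, Bowtie2 2.3.5.1 and featureCounts 1.5.0 and the build hg38. Their settings, the annotation and the treatment of reads that match several loci were not given in the sources used here. Such reads can raise the counts of several copies at once or be divided among them. Symbols came from GENCODE v44lift37 by identifier and RefSeq (GRCh38.p14) by identical position.

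Counts were tested with edgeR 4.0.16 (glmQLFit and glmQLFTest, R 4.3.3) on the whole table after filterByExpr at a minimum count of 10 and TMM scaling, with group as the only term and Benjamini-Hochberg adjustment over 1480 features. A feature was called at an adjusted p below 0.05 and a fold change above 1.5. The SE was the log2 fold change over the square root of F. CPM used TMM-scaled library sizes, except for the marker miRNAs, which used total counts. Log2 ratios within a library used raw counts and an exact two-sided permutation test over libraries. The test was checked on simulated counts of known fold change. Sequences came from the GENCODE v44lift37 transcripts by identifier. Positions in that annotation were read only for the distance and strand that placed SNORD3D, and none was converted between builds. With at least 405 counts behind each value of the 7 genes, the spread between libraries and not counting error limits the precision.

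The genes and lists were chosen with earlier results of these data known. Named in full were the 7 genes, copies of them that averaged 10 counts or more, the 3 most abundant tested features of each short list, and the 3 features most like SNORD3A, SNORD118 and SNORD13. Alternatives covered scaling, filter, DESeq2 1.42.0, a robust fit, a replicate block, the 5 most abundant features, how U3 was counted, a prior count of 10 in ratios and each library in turn. Ratios among U3 loci and the denominator with U3 counted once were chosen after seeing the data.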

Additional observations from a re-analysis of the deposited data

How the results depend on the processing

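None of the 7 genes was called under any of 14 alternatives, in which their smallest adjusted p was 0.297. SNORD3D stayed above 0 (0.35 to 0.71 on the log2 scale), as did SNORD13 (0.03 to 0.45), while SNORD118 ranged from -0.26 without 52X T4A replicate 2, through -0.082 without 52X T4A replicate 1 and -0.00071 with upper quartile factors, to 0.020 with library size alone. SNORD3B-2, at -0.00081, was above 0 with RLE factors (0.033), upper quartile factors (0.17), library size alone (0.18), miRNA factors (0.0012), no filter (0.027), DESeq2 (0.033) and without the 5 most abundant features (0.0071). Leaving out 1 library gave -0.057 to 0.13 for SNORD3A, -0.079 to 0.10 for SNORD3B-1, -0.089 to 0.0022 for SNORD3B-2, -0.087 to 0.037 for SNORD3C and -0.092 to 0.039 for U3 as 1 feature. Each of these was lowest without 52X WT replicate 2, and SNORD3C and U3 as 1 feature were also below 0 without 52X T4A replicate 2.

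Over all features, 2 calls (1 higher, 1 lower) became 9 (5 and 4) with library size alone, 0 with miRNA factors (143 at an unadjusted p below 0.05), 29 (7 and 22) with no filter and 29 (4 and 25) with DESeq2. Leaving out 1 library gave 4 to 218 calls (1 to 63 higher and 2 to 155 lower): 6 without 52X T4A replicate 1, 4 without 52X T4A replicate 2, 35 without 52X WT replicate 1, and the most, 218, without 52X WT replicate 2. With 1 library left in a group, its spread was taken to be that of the other group.

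The replicate numbers share no stated batch, and the deviations of same-numbered libraries correlated at 0.104, so they were not treated as pairs. With the replicate block 18 features were called (5 higher, 13 lower), none of the 7 genes, and SNORD3B-2 was at 0.0021. The block also called the U3 copy on chromosome 17 (adjusted p = 0.00035 in edgeR).

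The median of the intron-hosted cleavage snoRNAs (0.30) became 0.49 with upper quartile factors and 0.51 with library size alone, which moved the median of all features to 0.13 and 0.14, and 0.067 to 0.27 with 1 library left out, lowest without 52X WT replicate 1. That of the U3, U8 and U13 copies (0.06) became 0.21, 0.22 and, with no filter, 0.16, and -0.21 to 0.12 with 1 library left out, below 0 without 52X T4A replicate 1 or 52X WT replicate 1. That of the Pol III genes (-0.05) was -0.17 to 0.19 with 1 library left out. The difference of the log2 ratio of U13 to U3 (0.20) was -0.099 to 0.49 with 1 library left out, lowest without 52X WT replicate 1. The difference in the U3 share of C/D box counts, 0.121 percentage points, became 0.723 with the sum of the U3 loci and -0.0793 to 0.322 with 1 library left out, lowest without 52X T4A replicate 2. That of U8, -0.0085, was -0.0812 to 0.0641, above 0 without 52X T4A replicate 1 or 52X WT replicate 2. The causes were not tested. Without 52X WT replicate 2, the median log2 fold change was -0.59 for the other C/D box snoRNAs and -0.36 for the snRNA features. SCARNA2 was at -1.26 in that fit, and the median over all tested features was -0.05. The 2 libraries a group limit every comparison: an exact permutation test cannot go below 0.333.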
